A study of Mus musculus with 28 samples.

Results

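The regions described here were open in quiescent muscle stem cells and not in activated ones, closed in fibroblasts, and open in GFP-labelled cells after 10 days of MyoD and small molecules. They were 1811 stretches of mouse chromatin, of 255567 in all. Peaks of 27 libraries sharing 1 bp or more formed 1 region, which counts as called in each library with a peak in it. The 1811 were called in both quiescent satellite cell libraries and both Dox+FRG day 10 GFP libraries, and in no activated satellite cell and no day 0 fibroblast library. They made up 31.4% of the 5772 regions that quiescent and not activated satellite cells or day 0 fibroblasts called ("quiescent-only" regions). Of the 7771 regions called in activated and not quiescent cells or day 0 fibroblasts, both day 10 GFP libraries called 2699 (34.7%). Of all 255567 regions, 7.73% were called in both day 10 GFP and neither day 0 library. Calls in those 8 libraries chose the regions and are given as a description. Calls in the other 19 libraries had no part in the choice. Their peaks did enter the merge, and so could move the borders of regions or join them. With all 28 libraries merged, 1773 regions met the rule.

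The cells were mouse embryonic fibroblasts from E13.5 embryos, in which the Rosa locus carries rtTA, the Col1a1 locus a doxycycline-driven MyoD and a Pax7-nGFP reporter marks cells that use the Pax7 gene. Every MEF14 group came from such fibroblasts, so the MyoD transgene was present, without doxycycline, at day 0 as well. Dox+FRG day 10 GFP and day 8 GFP were cells carrying the GFP label, and Dox+FRG days 2, 4, 6 and 8 were cultures without that label, here named unsorted, with the caveat that no label describes a sort. Their medium held 2 μg/ml doxycycline, 5 μM forskolin, 5 μM RepSox, 3 μM CHIR99021 and 10 ng/ml basic FGF. FRG day 8 is read as the small molecules without doxycycline, FRG being taken as their initials, since its medium is not described. Dox+ days 4 and 8 had doxycycline and basic FGF. MEF10 MyoD+FRG and MEF10 MN+FRG were cultures of day 6, and the labels define neither MEF10 nor MN. Quiescent and activated satellite cells came from adult Pax7-nGFP mice of 10 to 12 weeks, and day 0 fibroblasts were the untreated start. Each of these 14 groups had 2 libraries, and no label ties them to different cultures or animals. The p-values therefore cover the spread between these libraries alone, which may be technical.

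Satellite cells lie along muscle fibres and carry Pax7, a transcription factor that marks them. They rest in quiescence until injury, then switch on MyoD, divide and build muscle or return to rest. Forskolin raises cyclic AMP, RepSox blocks the TGF-beta receptor kinase ALK5, and CHIR99021 blocks GSK3 and thereby activates Wnt signalling. ATAC-seq finds open chromatin by cutting it with a transposase, and a region open in 1 state only is often an enhancer used in that state.

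The 27 lists held 37301 to 134997 peaks without a score, height or read number, so sequencing depth is unknown and a missing peak can mean closed chromatin or a peak under the authors' threshold. The most common peak width of a list was 61 to 205 bp. FRG day 8 lists were the longest and narrowest (134997 and 133267 peaks, 61 and 63 bp wide), Dox+ lists held 89871 to 130916 peaks of 78 to 88 bp, and day 8 GFP lists held 47002 and 43467 peaks of 190 and 182 bp. A long list can call more of any class, so each share of the 1811 regions is set beside regions chosen by the same day 0 and day 10 GFP calls. These were 2699 activated-only regions (both activated and no quiescent libraries) and 7429 regions called in no satellite cell library, both sets open in day 10 GFP cells and closed at day 0. A further 3399 quiescent-only regions were called in neither day 10 GFP library.

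At the edge of the choice, 562 quiescent-only regions were called in 1 of the day 10 GFP libraries, 189 of them in replicate 1 and 373 in replicate 2. A call in 1 activated satellite cell library kept out 612 regions, and a call in 1 day 0 library kept out 522. A missing call in 1 quiescent library kept out 1679, of which 1616 were called in replicate 1 only and 63 in replicate 2 only. Quiescent replicate 2 had the shorter list, 37910 peaks against 57859 in replicate 1. With quiescent replicate 1 alone standing for its group the number was 3415. Peaks wider than the common width, taken alone, left 121 regions that met the rule.

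Before day 10, cells labelled GFP already called most of the 1811 regions. The day 8 GFP libraries called 67.3% and 62.1% of them, against 52.3% and 39.8% in unsorted Dox+FRG day 8 cultures. Both GFP libraries lay above both unsorted ones, although their lists were shorter than those of the unsorted libraries (67026 and 50608 peaks). Of the 1811 regions, 990 were called in both day 8 GFP libraries (54.7%), against 15.1% of all merged regions, and 459 in neither. For activated-only regions the order at day 8 was the other way, with 69.7% and 63.2% in GFP cells and 91.3% and 82.7% in unsorted cultures. Regions of no satellite cell library stood at 59.9% and 54.2% in GFP cells and 56.1% and 40.1% in unsorted cultures, with an overlap between the groups.

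**Figure D1:**
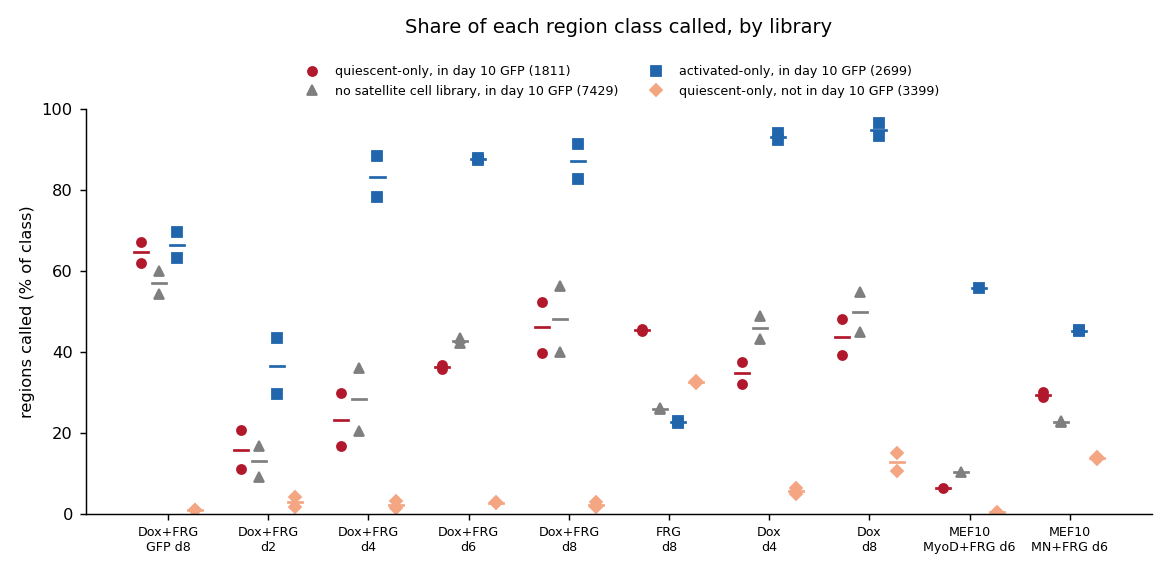
Share of 4 region classes called in each of the 19 libraries outside the choice, in percent of the class (y axis), by group (x axis, d for day). Points are libraries and short lines group means, and MEF10 MyoD+FRG has 1 library. The 1811 quiescent-only regions (red) reach 67.3% and 62.1% in day 8 GFP cells, and in every other group their mean is at most 46.1%. With wide peaks alone, the day 8 GFP mean was not the highest.

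As a share, the 1811 regions averaged 64.7% ± 3.67 in day 8 GFP libraries (SD, n = 2) and 30.4% ± 13.6 in the unsorted Dox+FRG libraries of days 2 to 8 (n = 8). Every GFP library exceeded every unsorted one, and the difference of 34.3 percentage points had p = 0.0222 in a two-sided exact permutation test, the smallest that 45 splits can give. Adjusted over 6 tests it was 0.0667 and did not pass. The choice favours this difference, since it asked for calls in GFP-labelled cells at day 10. Regions of no satellite cell library, chosen by the same day 0 and day 10 calls, averaged 57.0% and 33.0%. The p therefore cannot set the 1811 regions apart from others so chosen. The comparison also mixes the GFP label with day, since the unsorted libraries include earlier days. At day 8 alone the shares averaged 64.7% in GFP and 46.1% in unsorted libraries, a difference of 18.6 points (n = 2 each, exact permutation p = 0.333, the smallest that 6 splits can give). The log2 ratio of this share to that of activated-only regions was -0.04 ± 0.02 in day 8 GFP (SD, n = 2) and -1.34 ± 0.43 in unsorted libraries (n = 8), a difference of 1.30 (exact permutation p = 0.0222, adjusted p = 0.0667). At day 8 alone it averaged -0.04 in GFP and -0.93 in unsorted libraries, a difference of 0.89. The ratio still moved with list length: day 4 libraries of 70877 and 51536 peaks had -1.57 and -2.23, and the longer lists of days 2 and 8 also had the higher ratio. Against regions of no satellite cell library the same day 4 libraries had -0.27 and -0.30. With that second class the ratio was 0.18 ± 0.02 in day 8 GFP (n = 2) and -0.07 ± 0.24 in unsorted libraries (n = 8), and the difference was 0.25 (exact permutation p = 0.267, adjusted p = 0.327). With the 3399 quiescent-only regions that day 10 GFP cells did not call, the difference was 2.54. The choice set those regions apart by a GFP call, so no test is given for it. The size of the difference thus depended on the days and on the regions it was measured against.

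**Figure D2:**
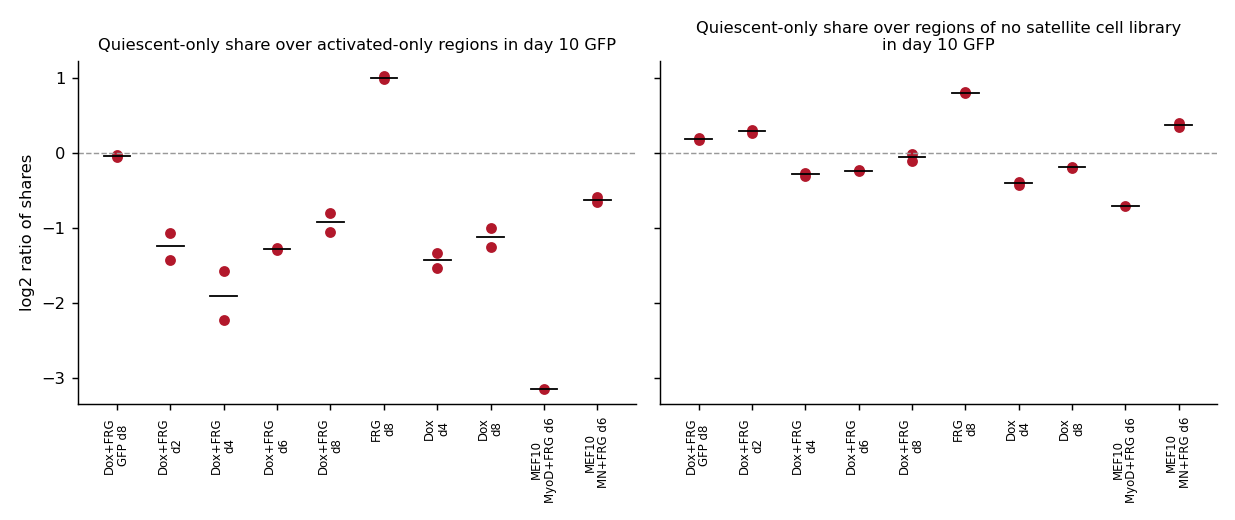
Log2 ratio of the share of the 1811 regions to the share of activated-only regions (left) and of regions of no satellite cell library (right), for each library (points) with group means (lines). Against activated-only regions day 8 GFP libraries lie near 0 and FRG libraries near 1, with all other groups below. Against regions of no satellite cell library the day 8 GFP mean of 0.18 stands below those of Dox+FRG day 2 (0.29), MEF10 MN+FRG (0.38) and FRG (0.80).

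Between single groups at day 8, 255 of the 1811 regions were called in both GFP and neither unsorted library (14.1%), against 1.08% of all merged regions. The reverse, neither GFP and both unsorted libraries, held for 46 (2.54%), against 4.06% of all regions. Regions of no satellite cell library, chosen by the same day 10 GFP calls, had 806 (10.8%) and 437 (5.88%), so the gain in the 1811 was near theirs. Among activated-only regions 64 went the first way and 488 the second. Without unsorted replicate 1 the first count was 405. Without unsorted replicate 2 the second was 125, and without GFP replicate 1 it was 97. Without quiescent replicate 2 the 2 counts were 419 and 100, and the regions called in both day 8 GFP libraries numbered 1722. Calls in day 8 GFP cells alone, with none in the other 17 libraries outside the choice, were found for 127 regions. In GFP and none of the 8 unsorted libraries there were 212. The choice by GFP calls favours both numbers, and no share of other regions was computed beside them.

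In unsorted cultures the later days had the higher shares of the 1811 regions, which the choice favours, since it asked for no call at day 0 and for calls at day 10 of the same course. Day 2 libraries called 20.7% and 11.0%, day 4 libraries 29.8% and 16.6%, day 6 libraries 35.8% and 36.7%, and day 8 libraries 52.3% and 39.8%. The libraries of day 6 and day 8 lay above all those of days 2 and 4, and replicates of days 2, 4 and 8 were far apart. Regions of no satellite cell library, chosen by the same day 0 and day 10 calls, were called at 12.9%, 28.3%, 42.7% and 48.1% on average on these days. No test of the share against day is therefore given. The log2 ratio to activated-only regions did not pass the threshold against day over these 8 libraries (r = 0.44, exact permutation p = 0.297, adjusted over 2 relations 0.297, rho = 0.59, p = 0.153, adjusted 0.153). It averaged -1.25 on day 2, -1.90 on day 4, -1.27 on day 6 and -0.93 on day 8. Without day 2 its r was 0.88 (exact permutation p = 0.0222) and without day 8 -0.03 (p = 0.978).

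Activated-only regions followed another course. They were called at 36.5% on average at day 2 and 83.3% at day 4, and stayed between 87.0% and 87.7% at days 6 and 8. The 1811 quiescent-only regions stood at 15.8%, 23.2%, 36.3% and 46.1% on the same days. Both libraries called 157 of the 1811 at day 2 (8.67%, against 16.2% of all merged regions), 240 at day 4 (13.3%, against 18.4%), 495 at day 6 (27.3%, against 21.2%) and 646 at day 8 (35.7%, against 18.2%). Only from day 6 did they thus exceed the share of all regions, which include those open in every cell.

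By the first unsorted group in which both libraries called them, 157 of the 1811 regions belonged to day 2, 162 to day 4, 255 to day 6 and 215 to day 8. These were 8.67%, 8.95%, 14.1% and 11.9%, against 16.2%, 5.90%, 4.19% and 1.30% of all merged regions. Another 394 (21.8%, against 1.55%) were called in both day 8 GFP libraries and in both libraries of no unsorted group. The last 628 (34.7%, against 70.8%) were called in both libraries of none of these. Of them, 255 had a call in 1 day 8 GFP library. For 251 of the 628 no unsorted Dox+FRG and no day 8 GFP library had a call. Activated-only regions were earlier, with 26.3% first called at day 2, 52.5% at day 4 and 6.11% in none of these groups. Regions of no satellite cell library were nearer to the 1811, with 7.01% first called at day 2, 13.6% at day 4, 18.0% in day 8 GFP alone and 35.9% in none. Of the 157 regions first called at day 2, 60 (38.2%) were called in both libraries on every later day, and 70.1% at day 8. Among those of day 4 it was 114 of 162 (70.4%), and among those of day 6 it was 195 of 255 (76.5%). Of the 157 early regions, 79.6% were called in both day 8 GFP libraries.

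**Figure D3:**
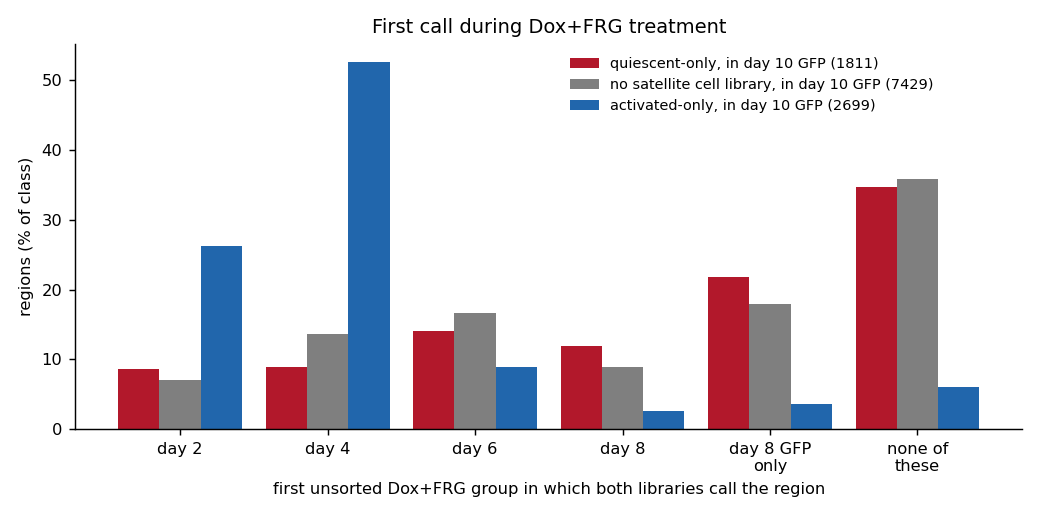
First unsorted Dox+FRG group in which both libraries called a region (x axis), in percent of each class (y axis). The last bars on the right hold regions called in both day 8 GFP libraries alone and regions called in both libraries of none of these groups. Of the 1811 quiescent-only regions (red) 34.7% fall in the last set, against 35.9% of regions of no satellite cell library (grey) and 6.11% of activated-only regions (blue).

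From day to day the gains outnumbered the losses, as the choice of regions favours. Between day 4 and day 2 cultures 101 of the 1811 regions were gained (both libraries of the later and neither of the earlier group, 5.58%, against 3.59% of all regions) and 22 lost (1.21%, against 1.32%). Between day 6 and day 4 it was 119 gained (6.57%, against 1.55%) and 14 lost (0.773%, against 0.969%). Between day 8 and day 6 it was 109 gained (6.02%, against 0.549%) and 21 lost (1.16%, against 1.40%). Regions of no satellite cell library had 704 gains at day 4 (9.48%), 536 at day 6 (7.21%) and 281 at day 8 (3.78%), and activated-only regions 963, 45 and 30.

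The small molecules alone and MyoD alone each called a smaller share of these regions than of all merged regions. FRG day 8 libraries called 45.1% and 45.6% of the 1811, against 32.0% and 37.4% in Dox+ day 4 and 39.1% and 48.2% in Dox+ day 8. FRG lay within the range of Dox+ day 8. The mean share was 45.3% ± 0.391 in FRG (SD, n = 2) and 39.2% ± 6.70 in Dox+ libraries (n = 4), a difference of 6.16 points (exact permutation p = 0.333, adjusted p = 0.400). At day 8 alone it was 1.68 points. Both FRG libraries called 751 regions (41.5%, against 45.4% of all merged regions), and both Dox+ day 8 libraries 652 (36.0%, against 38.5%), so neither share exceeded the background. At Dox+ day 4 it was 510 (28.2%, against 30.7%). Among the 152461 regions that day 0 and activated satellite cell libraries left uncalled, FRG called 31.7% in both libraries and Dox+ day 8 19.6%.

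Set against activated-only regions, the agents differed, mainly in their calls of those activated-only regions. Their shares of the quiescent-only regions open in day 10 GFP cells were closer, on average 45.3% in FRG and 39.2% in Dox+ libraries. FRG cells called 22.9% and 22.5% of activated-only regions, while Dox+ cells called 92.3% to 96.4%. The log2 ratio of the quiescent-only to the activated-only share was 1.00 ± 0.03 in FRG (SD, n = 2) and -1.28 ± 0.22 in Dox+ libraries (n = 4), a difference of 2.28. All FRG libraries lay above all Dox+ libraries, and the exact permutation p was 0.0667, the smallest that 15 splits can give (adjusted p = 0.133). With so few splits this test could not pass the threshold. At day 8 alone the difference was 2.13. It was 1.10 against regions of no satellite cell library (adjusted p = 0.200, exact permutation) and 1.36 with wide peaks alone. It turned to -1.74 against quiescent-only regions that day 10 GFP cells did not call, of which FRG called 32.8% and 32.3% and Dox+ 4.88% to 14.9%. Unsorted Dox+FRG and Dox+ libraries had ratios of -1.34 ± 0.43 (n = 8) and -1.28 ± 0.22 (n = 4), a difference of -0.06 (exact permutation p = 0.808, adjusted p = 0.808). Their shares were 30.4% ± 13.6 and 39.2% ± 6.70, a difference of -8.82 points (exact permutation p = 0.273, adjusted p = 0.400). The days of these groups differ, and matched by day the direction turned at day 8. At day 4 the unsorted Dox+FRG share averaged 23.2% and the Dox+ share 34.7%, with log2 ratios of -1.90 and -1.43. At day 8 the shares averaged 46.1% in unsorted Dox+FRG and 43.6% in Dox+, with log2 ratios of -0.93 and -1.13.

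Split by the single agents, 281 of the 1811 regions were called in both FRG and neither Dox+ day 8 library (15.5%, against 17.6% of all regions), and 259 in both Dox+ and neither FRG library (14.3%, against 13.9%). A further 341 were called in all 4 of these libraries (18.8%, against 22.9%), and 537 in none of them (29.7%, against 18.5%). The other 393 had a call in 1 library of a group (21.7%, against 27.1%). Activated-only regions were divided unlike this, with 24, 1877, 486 and 58 regions in the same 4 sets. Without quiescent replicate 2 the 4 counts of quiescent-only regions were 461, 517, 705 and 891, and without day 0 replicate 1 the number called in all 4 libraries was 513.

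The 537 regions with no call in either single agent at day 8 were called late, which the choice by day 0 and day 10 calls favours. Dox+FRG libraries of day 2 called 3.35% and 1.12% of them, those of day 4 4.10% and 1.12%, those of day 6 10.1% each, and those of day 8 27.6% and 21.8%. In day 8 GFP cells they stood at 64.1% and 59.8%. Both GFP libraries called 279 of the 537 (52.0%, against 15.1% of all regions), and both unsorted day 8 libraries 96 (17.9%, against 18.2%). The choice by day 10 GFP calls favours the GFP share. In every unsorted group their mean share was below that of the other 3 sets, and in GFP cells it lay among them. The split favours low shares in other cultures, since it asked for no call in FRG and Dox+ day 8 cells.

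The 259 regions of Dox+ cells without FRG calls stood at 78.0% and 73.7% in day 8 GFP and 80.3% and 64.1% in unsorted day 8 libraries, with an overlap. They were at 18.9% and 10.4% on day 2 and at 51.7% and 28.6% on day 4, and Dox+ day 4 libraries called 81.5% and 88.0% of them. The 281 regions of FRG cells without Dox+ day 8 calls were at 59.8% and 55.5% in day 8 GFP and at 44.1% and 32.0% in unsorted day 8 libraries, without overlap. Unsorted libraries called 21.4% of them on average on day 2, 16.0% on day 4, 26.3% on day 6 and 38.1% on day 8. No test was made between these sets.

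**Figure D4:**
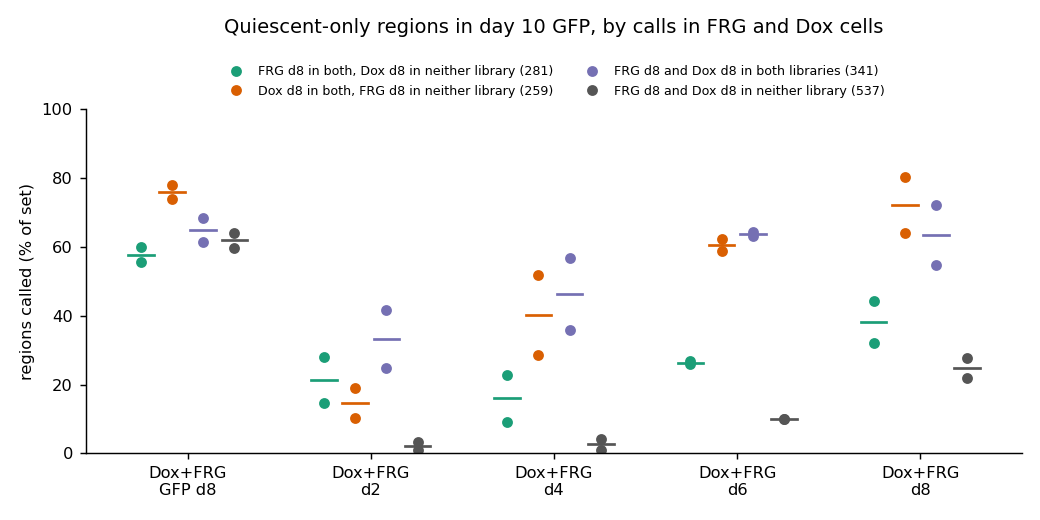
Share of the 1811 regions called (y axis, percent of the set) in day 8 GFP and unsorted Dox+FRG libraries (x axis), in 4 sets by calls in FRG day 8 and Dox+ day 8 cells. Points are libraries and lines means. The 537 regions of neither agent (dark grey) stay at or below 10.1% in libraries up to day 6 and reach 64.1% and 59.8% in day 8 GFP cells.

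With both agents together at day 8, against each alone, gains and losses were closer to balance than in the series as a whole. Unsorted Dox+FRG cells gained 181 of the 1811 regions over Dox+ day 8 (9.99%, against 0.785% of all regions) and lost 134 (7.40%, against 16.0%). Over FRG day 8 they gained 300 (16.6%, against 4.80%) and lost 268 (14.8%, against 28.4%). The choice by Dox+FRG day 10 calls favours such gains. Regions of no satellite cell library had 548 gains over Dox+ day 8 (7.38%) and 571 losses (7.69%). Over FRG day 8 these regions had 1871 gains (25.2%) and 620 losses (8.35%). Dox+ day 8 had gained 102 of the 1811 regions over Dox+ day 4 (5.63%, against 6.53%) and lost 17 (0.939%, against 0.899%).

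In the MEF10 cultures, as in every other group but FRG, the 1811 regions were called less than activated-only regions. MEF10 MyoD+FRG replicate 1, the shortest list, called 114 of the 1811 (6.29%) and 55.8% of activated-only regions, a log2 ratio of -3.14, the lowest of the 19 libraries. The same list called 14.4% of all merged regions. MEF10 MN+FRG libraries called 28.9% and 30.0% of the 1811 and 45.4% and 45.1% of activated-only regions, from 93086 and 93730 peaks. Of regions of no satellite cell library they called less, 22.6% and 22.8%, while MEF10 MyoD+FRG replicate 1 called more, 10.3%. Both MEF10 MN+FRG libraries called 415 of the 1811 (22.9%, against 30.6% of all regions).

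Over the 19 libraries the 1811 regions varied widely in how often they were called. The median region was called in 6 libraries, with quartiles of 3 and 11, and 552 regions (30.5%) were called in 10 or more. Activated-only regions had a median of 13 and regions of no satellite cell library 6, with 85.0% and 30.1% called in 10 or more. Of the 3399 quiescent-only regions that day 10 GFP cells did not call, 54.8% had no call in any of the 19, against 6.90% (125) of the 1811. The choice by GFP calls favours this contrast, and regions of no satellite cell library stood at 7.13%. At the other end 9 regions were called in all 19 libraries, against 130 of the 2699 activated-only ones. Over the 19 libraries the share of the 1811 called had a median of 36.7% and ran between 6.29% and 67.3%.

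**Figure D5:**
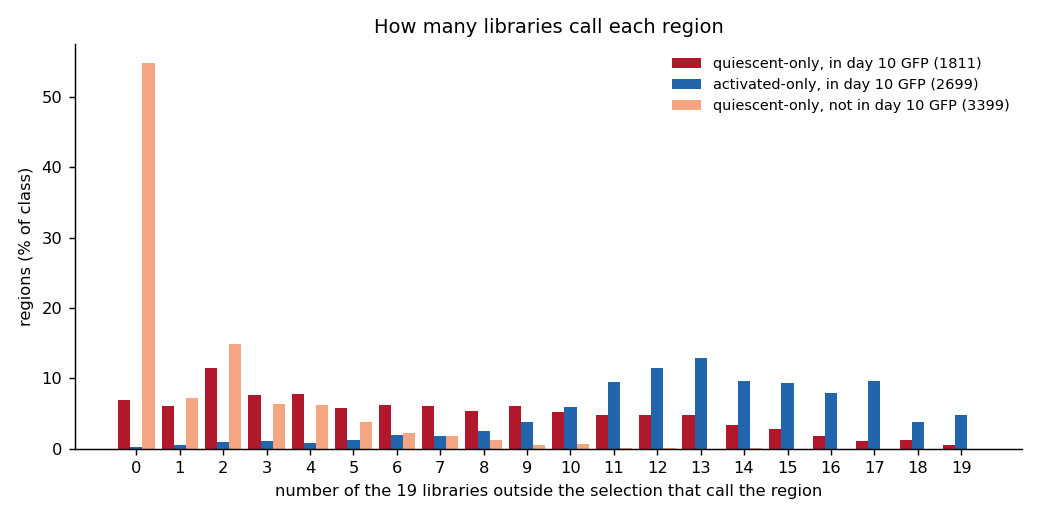
Number of the 19 libraries outside the choice that called a region (x axis), in percent of each class (y axis). The 1811 quiescent-only regions (red) spread over the whole range with a median of 6, the activated-only regions (blue) centre on 13, and 54.8% of quiescent-only regions not called in day 10 GFP cells stand at 0.

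In build mm9 the 1811 regions lay on all 19 autosomes and chromosome X. Chromosome 1 held 162 of them (8.95%, against 7.50% of all regions) and chromosome 8 held 66 (3.64%, against 5.17%). As a share of the quiescent-only regions of a chromosome they ran between 25.1% on chromosome 8 and 37.1% on chromosome 19. The median merged region was 362 bp wide (quartiles 279 and 754 bp), close to 355 bp for activated-only regions and wider than the 239 bp of quiescent-only regions not called in day 10 GFP cells. A merged region can widen with each list that calls it. Most single peaks had the common width of their list. In day 8 GFP lists 5.99% and 4.98% of the 1811 regions called there had a wider peak, against 4.20% and 2.93% of activated-only regions. For all merged regions called there it was 8.20% and 6.54%, so the 1811 lay below the background.

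In windows of 100 kb, 1418 of the regions (78.3%) were alone and 18 windows held 3 or more. The median gap to the nearest other of the 1811 was 197827 bp, against 475350 bp between an activated-only region and the nearest of the 1811. For regions of no satellite cell library that gap was 398841 bp, and for quiescent-only regions not called in day 10 GFP cells it was 251194 bp. Another of the 1811 lay within 10 kb of 5.19% of them, against 2.33% of the 152461 regions uncalled at day 0 and in activated cells. For quiescent-only regions not called in day 10 GFP cells this was 4.56%, near that of the 1811. For regions that quiescent, activated and day 10 GFP cells all called it was 4.09%. Regions of no satellite cell library had 2.60% and activated-only regions 1.82%. These gaps were not tested. From the 1811 to the nearest region called at day 0 the median gap was 7255 bp, and to the nearest region called in activated satellite cells 9910 bp. A day 0 region lay within 1 kb of 2.54% of the 1811, and within 10 kb of 62.1%. For activated-only regions the median gap to a day 0 region was 8098 bp.

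The window with most of them, 4, ran on chromosome 18 from 55100001 to 55200000, among 26 merged regions and 8 quiescent-only ones. Day 8 GFP libraries called all 4 in both replicates. Unsorted Dox+FRG libraries of day 2 called 1 and 0, those of day 4 called 2 and 1, those of day 6 called 2 and 3, and those of day 8 called 4 and 3. FRG called 3 in both libraries and Dox+ day 8 2 and 3. The window on chromosome 1 from 193200001 to 193300000 held 3, and all quiescent-only regions there were among the 1811. Day 8 GFP libraries called 2 and 3 of these, and Dox+ day 8 libraries 2 and 3. The window on chromosome 3 from 129300001 to 129400000 likewise held 3, of which day 8 GFP libraries called 1 each and FRG libraries 2 and 3. In 2 further windows on chromosome 1, from 92300001 to 92400000 and from 195000001 to 195100000, 3 of 6 and 3 of 5 quiescent-only regions were among the 1811.

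The region with the widest peaks in quiescent cells lay on chromosome X from 68901266 to 68903466. Its peaks measured 2161 and 2149 bp in quiescent and 1040 and 1048 bp in day 10 GFP libraries, and 17 of the 19 other libraries called it, day 8 GFP with 1281 and 2135 bp. The next widest were not like it in GFP cells. On chromosome 13 from 28743762 to 28745190 the peaks were 1429 and 1318 bp in quiescent libraries and of the common width, 184 and 172 bp, in day 10 GFP, with calls in the FRG libraries alone among the 19. On chromosome 1 from 154931400 to 154932651 they were 1252 and 1190 bp in quiescent libraries, with no call in day 8 GFP cells. The region on chromosome 17 from 25646100 to 25647848 (1343 and 1615 bp in quiescent libraries) was called in 10 of the 19, in both day 8 GFP libraries and in no FRG library. The region on chromosome 10 from 42562165 to 42563517 was called in 9, among them day 8 GFP replicate 2 and both unsorted libraries of days 6 and 8.

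Among the 127 regions that day 8 GFP cells alone called, the widest in day 10 GFP lists lay on chromosome 7 from 143721956 to 143723283. It had peaks of 1288 and 1255 bp in day 10 GFP, 1217 and 182 bp in day 8 GFP and 180 and 172 bp in quiescent libraries. The region on chromosome 16 from 87319314 to 87320309 was wide in both cell types, with 761 and 813 bp in day 10 GFP and 960 and 743 bp in quiescent libraries. A further pair was wide in day 10 GFP lists, on chromosome 13 from 98185323 to 98186300 (803 and 919 bp) and on chromosome 10 from 93170225 to 93171197 (863 and 665 bp). The fifth, on chromosome 1 from 24524380 to 24524721, had peaks of the common width throughout.

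The 9 regions that all 19 libraries called were closed, by their calls, at day 0 and in activated satellite cells alone. The widest of these in day 10 GFP cells lay on chromosome 3 from 15153319 to 15154451, with 1045 and 1054 bp there, 1047 and 205 bp at Dox+FRG day 2 and 180 and 172 bp in quiescent libraries. The region on chromosome 3 from 23969344 to 23970419 had wide peaks in every unsorted Dox+FRG library, between 843 and 1042 bp. In quiescent and day 10 GFP libraries it had the common width. The others taken by the same order lay on chromosome 2 from 10075050 to 10075656 and on chromosome 5 from 132844572 to 132844937 and from 144415655 to 144415980.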

How the data were processed

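The deposited files are peak lists, other data than counts or signal, and BWA, HOMER and mouse build mm9 are named, per the submitters' processing notes, for the steps the authors ran. Each list gives chromosome, start and end of the peaks of 1 library, and positions on chromosome 1 reach 197068386. Tool versions, the peak threshold and whether reads were shifted to the cut site: not given in the sources used here. Per the labels' protocols 60000 cells entered a reaction and libraries had 13 PCR cycles.

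Lists were merged with Python 3.11.15 and numpy 2.4.6, without MEF10 MyoD+FRG replicate 2, whose peaks have a median width of 722 bp and reach 202465 bp. Starts in the lists count from 0, and printed ones from 1. Log2 ratios add 0.5 to each number of called regions. Tests were two-sided exact permutation tests over libraries with Benjamini-Hochberg adjustment over the 6 tests, with each library as 1 unit. The counting was tested on simulated lists. The regions, sets and tests were chosen with earlier results of these data known, and the relation with day, the comparisons within day 8 or day 4 and the widening of narrow peaks were added after the lists were seen.

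Named regions were the 5 with the widest peaks in quiescent lists relative to the common width, the 5 widest in day 10 GFP lists among those called in day 8 GFP alone and among those called in all 19 libraries, and the 5 windows with most regions, ties taken by chromosome and start, which decided 4 of the 5 windows among 17 that held 3. Gene names, motifs and sequences were planned only with an mm9 annotation or genome, and are not used here.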

Additional observations from a re-analysis of the deposited data

Results flagged for a closer look

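The library left out of the merge, MEF10 MyoD+FRG replicate 2, overlapped 41.1% of the 1811 quiescent-only regions, although no comparison used it. It overlapped 90.7% of the activated-only regions open in day 10 GFP cells, 46.1% of those of no satellite cell library and 36.6% of all merged regions. Its 91401 peaks have a median width of 722 bp, and the part of this width in the overlap was not tested.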

How the results depend on the processing

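The number of quiescent-only regions in day 10 GFP cells was 121 with only the peaks wider than their list's common width, and 1842 to 3415 when 1 library of the choice was left out. With such wide peaks alone, the 121 regions averaged 51.7% called in day 8 GFP, 54.1% in FRG day 8 and 55.0% in Dox+ day 8 libraries. Day 8 GFP then no longer had the highest mean. Against quiescent-only regions outside day 10 GFP, which the choice set apart by Dox+FRG GFP calls, the differences in log2 ratio were 2.54 for day 8 GFP against unsorted, 1.31 for unsorted Dox+FRG against Dox+ and -1.74 for FRG against Dox+. No p is read from these, since the choice favours such differences. Between day 8 GFP and unsorted libraries the main log2 difference ran between 1.10 and 1.37 with 1 library left out, and was 0.89 with day 8 alone (0.24 against regions of no satellite cell library). Between unsorted Dox+FRG and Dox+ it turned to 0.23 against regions of no satellite cell library, and ran between -0.22 and 0.0695 with 1 library left out (0.0695 without Dox+FRG day 4 replicate 2 and 0.0416 without Dox+ day 8 replicate 2). With day 8 alone it turned to 0.20 (0.14 against regions of no satellite cell library), and the share difference to 2.43 points. The Pearson r of the share with day, whose sign the choice favours, was 0.91, and 0.77 with wide peaks. The causes were not tested, except that fewer peaks and fewer libraries change the numbers of regions by construction. With replicate numbers as a replicate block, the exact permutation p of day 8 GFP against unsorted was 0.0400 for both measures (adjusted p = 0.120, differences of 1.30 and 34.3), and no call changed. Deviations of same-numbered libraries correlated between -0.011 and 0.107 over 28 pairs of groups, highest between Dox+FRG days 4 and 8. Whether same-numbered libraries share a culture or batch is not given, and these values cannot tell. The 8 results with a p were the 6 tests and the 2 relations with day, among them the share against day, from which no test is read. Of their alternative values, 189 kept direction and side of the threshold. Another 8 changed direction, 1 came to pass the threshold and 1 no longer passed it. The value that came to pass was day 8 GFP against unsorted, set against quiescent-only regions outside day 10 GFP. The value that no longer passed was the share against day with wide peaks. The choice favours both, so neither is read as a result. For many the side was fixed, since 2 libraries against 2 cannot reach the threshold. Neither can FRG against Dox+ (smallest exact permutation p 0.0667), nor day 8 GFP with 1 of its libraries left out (0.111). The count of 189 is thus no measure of robustness. Unknown depth limits every missing call.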
